A study of Homo sapiens with 27 samples.

Results

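The 10 genes described here are the inflammatory chemokines CXCL8, CXCL1, CXCL2, CXCL3 and CCL2, the interleukins IL1A, IL1B, IL6 and IL24, and PTGS2, the inducible prostaglandin synthase. They were taken as a named list and are 10 of the 58721 genes in the count table. RNA was sequenced from A375, an established line of human melanoma cells whose BRAF kinase is activated by mutation, and the 27 libraries form 9 groups of 3. Control cells, labelled WT, carried a guide against GFP and serve as the non-targeting control. The other cells are labelled TADA2B KO and carried guide 1 or guide 2 against TADA2B, a subunit of the histone-acetylating SAGA complex. Each of these populations received DMSO, 20 nM trametinib or 1 µM vemurafenib for 24 h. Trametinib inhibits the kinase MEK, and vemurafenib inhibits mutant BRAF, the kinase just above MEK. The labels say neither whether the edited cells were clones or pools nor whether replicate libraries stem from separate cultures. The p-values therefore reflect the spread among replicate libraries, which could be technical.

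Chemokines are small secreted proteins that draw leukocytes. CXCL8 (interleukin 8) and the GRO chemokines CXCL1, CXCL2 and CXCL3 bind CXCR2 on neutrophils, and CCL2 binds CCR2 on monocytes. IL1A and IL1B share the receptor IL1R1 and switch on NF-kB, a family of transcription factors that in turn drives many chemokine genes, IL6 and PTGS2. In melanoma, CXCL1 and CXCL8 are made by the tumour cells themselves, and signalling through BRAF, MEK and ERK adds to NF-kB by way of AP-1, factors built from FOS and JUN proteins. IL24, a member of the interleukin 10 family, was found through its induction in melanoma cells made to differentiate.

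The 4 CXC chemokine genes lie on chromosome 4 and hold the same run of letters upstream of their start. RefSeq promoter windows (GRCh38.p14, from 250 bases before to 50 after a gene's start) were found for 9 of the 10 genes, not for CCL2. They were searched for a κB motif (GGNNTTTCC) and an AP-1 motif (TGANTCA) on both strands. The windows below are shown because CXCL8 and CXCL1, which share the κB letters, changed in opposite directions in knockout cells in DMSO; the other genes that hold a motif stand beside them for comparison. Capitals mark the motif, each window reads 5′ to 3′ on the gene's own strand, and the distance is from the motif's start to the start of the gene.
CXCL8, κB motif 91 bases upstream, chr4:73740468-73740497, plus strand: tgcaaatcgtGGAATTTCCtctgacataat
CXCL1, κB motif 78 bases upstream, chr4:73869305-73869334, plus strand: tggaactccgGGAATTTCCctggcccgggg
CXCL2, κB motif 77 bases upstream, chr4:74099253-74099282, minus strand: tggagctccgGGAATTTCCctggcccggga
CXCL3, κB motif 78 bases upstream, chr4:74038748-74038777, minus strand: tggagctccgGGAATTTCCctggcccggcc
IL6, κB motif 72 bases upstream, chr7:22727118-22727147, plus strand: atcaaatgtgGGATTTTCCcatgagtctca
CXCL8, AP-1 motif 137 bases upstream, chr4:73740421-73740450, plus strand: aggaagtgtgaTGACTCAggtttgccctga
IL1A, AP-1 motif 12 bases upstream, chr2:112784487-112784516, minus strand: gcgaagaagacTGACTCAggcttaagctgc

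The κB letters were the same, GGAATTTCC, in CXCL8, CXCL1, CXCL2 and CXCL3. CXCL1, CXCL2 and CXCL3 each held another κB match, GGGCTTTCC, 53 bases upstream, which CXCL8 did not. Among the searched genes the AP-1 letters were found in CXCL8 and IL1A. IL1A has 2 listed starts, and the motif shown lies 105 bases upstream of the other start. A further AP-1 match in IL1A, TGAGTCA, begins 39 bases after the start used above and 55 bases before the other. Over all 35116 promoters of this length, 6.26% held the κB motif and 7.71% the AP-1 motif. The upstream sequences of CXCL1 and CXCL3 were identical at 81.4% of aligned positions, those of CXCL2 and CXCL3 at 73.3%, and those of CXCL1 and CXCL2 at 70.4%, against 35.3% to 41.5% between CXCL8 and the others. No match to either motif was found in the windows of IL1B, IL24 and PTGS2, which says only that these letters are not in those 300 bases. A match is a run of letters and not a measured binding site.

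Library totals lay between 67502300 and 92513726 counts, so that 1 count is worth 0.0102 to 0.0149 CPM (counts scaled to the library total), and 3 counts in the smallest library are 0.0447 CPM. TADA2B, the targeted gene, averaged 31.2 CPM ± 0.931 (SD, n = 3) in DMSO-treated control cells, 30.4 CPM in guide 1 cells and 28.6 CPM in guide 2 cells. With trametinib it stood at 41.3, 34.9 and 29.3 CPM in the same order, and with vemurafenib at 43.8, 32.6 and 28.5. In DMSO the log2 difference from control cells was -0.08 ± 0.04 for both guides together (adjusted p = 0.0629) and -0.04 ± 0.04 for guide 1 (adjusted p = 0.522). For guide 2 it was -0.12 ± 0.04 and passed the test (adjusted p = 0.0126), with libraries at 27.3 to 29.6 CPM against 30.2 to 32.1 in control cells. Under drug TADA2B was lower over both guides, by -0.37 ± 0.04 in trametinib (adjusted p = 1.17e-12) and -0.52 ± 0.04 in vemurafenib (adjusted p = 1.01e-17) on the log2 scale. Cells are called knockout as labelled. SOX10, which marks the melanocyte lineage, reached 267 to 1120 CPM and MITF 52.1 to 152 CPM, while the pigment gene TYR was at most 0.281 CPM and DCT ran from 0.128 to 1060 CPM. The sum of 8 melanocytic markers moved with the groups: it was 1000 to 1080 CPM in control cells in DMSO and 2240 to 2370 CPM with a drug. With guide 1 it was 553 to 567 CPM in DMSO and 746 to 799 CPM with a drug, and with guide 2 it was 344 to 361 and 457 to 486 CPM. Its part in the results was not tested. Of the genes that define leukocytes, LYZ ran from 4.55 to 35.8 CPM, PTPRC reached 2.91, CSF1R 2.22 and FCER1G 2.02 CPM, and CD3E and TYROBP stayed at or under 0.0889 CPM. Mitochondrial RNA took 1.58% to 1.68% of counts in control cells in DMSO and 2.05% to 3.60% in the other groups, and its part in any result was not tested.

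To compare genes with one another, CPM was divided by the length of the annotated exons in kilobases. In control cells in DMSO, IL24 was the most abundant of the 10 at 59.7 CPM per kilobase ± 3.63 (SD, n = 3). CXCL8 at 6.65 ± 0.492 and CXCL1 at 6.42 ± 0.395 followed and did not differ beyond their spread. IL1A stood at 1.96, then came CCL2 at 0.550 ± 0.0761 and CXCL3 at 0.520 ± 0.0838, again within each other's spread, then CXCL2 at 0.303 ± 0.150 and PTGS2 at 0.221 ± 0.00972. IL1B at 0.154 and IL6 at 0.00433 closed the order. With guide 1 in DMSO the order was IL24 at 25.8 CPM per kilobase, CXCL8 at 17.3, IL1A at 4.31, CCL2 at 3.11 and CXCL1 at 2.82, so that CXCL1 had dropped from the top 3. With guide 2 in DMSO CCL2 at 4.38 stood above IL1A at 3.61, after IL24 at 22.2 and CXCL8 at 15.3, and CXCL1 was at 1.70. In knockout cells given a drug, no group mean except those of IL24 and CCL2 exceeded 1 CPM per kilobase.

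**Figure D1:**
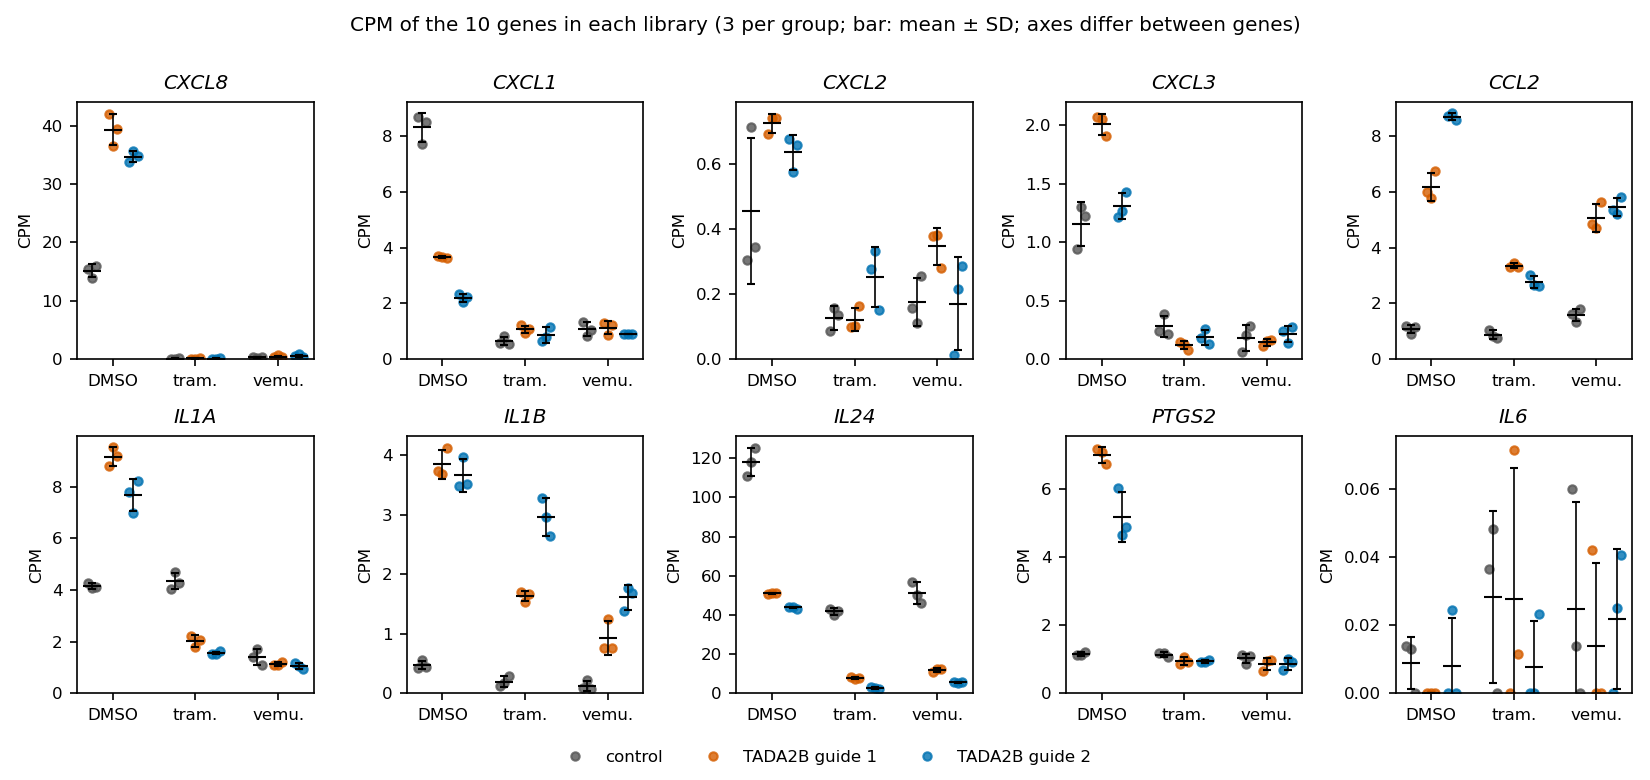
CPM (y axis, a separate scale for each gene) of the 10 genes in each library, by treatment (x axis; tram., trametinib; vemu., vemurafenib) and cell population (colour); points are libraries and black bars the mean ± SD of 3. CXCL8 falls to under 1 CPM in all libraries given a drug, whereas CCL2 and IL1B in knockout cells stay above every control library there.

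Trametinib in control cells lowered 6 of the 9 genes that could be tested and raised none, with CXCL8 changed most. Of all 25199 genes tested, 69.0% were called in this comparison, 36.4% higher and 32.5% lower, with an adjusted p under 0.05 in edgeR's quasi-likelihood test. The median log2 fold change of the 9 genes was -1.50, against 0.0594 for all genes. As bulk RNA was sequenced, fewer cells expressing a gene and less of its RNA per cell cannot be told apart. Markers of other cell types moved too: the summed level of 9 leukocyte markers was 18.1 to 18.6 CPM in control cells in DMSO and 9.06 to 11.6 CPM with a drug, and that of 7 fibroblast markers 36.8 to 38.0 and 62.8 to 72.8 CPM. Their part in the drug results was not tested.

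CXCL8 (ENSG00000169429, chromosome 4, 73740506 to 73743716, plus strand, hg38) read 15.5, 13.9 and 16.0 CPM in the control libraries in DMSO and 0.0245, 0.0482 and 0.163 CPM in those given trametinib. The treated libraries held 2, 4 and 12 counts of CXCL8, against 1069 to 1116 in DMSO, and the groups lay far apart. CXCL8 fell 196-fold (log2 -7.61 ± 0.47, adjusted p = 4.2e-26). Without the library of 12 counts, replicate 3, the change was -8.64, so its size rests on a handful of reads. With vemurafenib CXCL8 read 0.433, 0.236 and 0.345 CPM, above every trametinib library, and the fall was 43.9-fold (log2 -5.46 ± 0.24).

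The GRO chemokines fell less. CXCL1 (ENSG00000163739, chromosome 4, 73869393 to 73871242, plus strand) read 8.69, 7.73 and 8.53 CPM in DMSO, 0.599, 0.831 and 0.543 with trametinib and 1.34, 0.847 and 1.06 with vemurafenib. No library of CXCL1 given a drug came near the DMSO level, and the falls were 12.5-fold (log2 -3.65 ± 0.17) and 7.63-fold (log2 -2.93 ± 0.16). CXCL3 read 0.944, 1.30 and 1.22 CPM in DMSO against 0.244, 0.386 and 0.217 with trametinib and 0.0602, 0.208 and 0.281 with vemurafenib. CXCL3 fell by 2.02 ± 0.29 and 2.66 ± 0.32 on the log2 scale, and its groups did not overlap. CXCL2 was the least abundant of the family and the least precise: it read 0.305, 0.713 and 0.344 CPM in DMSO, 0.0856, 0.157 and 0.136 with trametinib and 0.156, 0.111 and 0.256 with vemurafenib. Its falls of 1.85 ± 0.46 and 1.38 ± 0.43 leaned on the high DMSO replicate 2, without which the vemurafenib change was -0.88 (adjusted p = 0.101). Transcripts of CXCL1, CXCL2 and CXCL3 share 4.81%, 12.5% and 6.01% of their 50-base stretches with one another, and how the authors treated reads with several matches is not given in the sources used here, so the split of reads among these 3 genes is uncertain.

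CCL2, the monocyte chemokine, was called in control cells with vemurafenib alone, and upward. CCL2 (ENSG00000108691, chromosome 17, 34255218 to 34257203, plus strand) read 1.21, 0.921 and 1.15 CPM in control cells in DMSO, 1.06, 0.831 and 0.747 with trametinib and 1.64, 1.35 and 1.79 with vemurafenib. Its trametinib libraries overlapped those in DMSO (log2 -0.30 ± 0.16, adjusted p = 0.0824). That value passed the threshold without DMSO replicate 2 (-0.41, adjusted p = 0.0288) or without trametinib replicate 1 (-0.46, adjusted p = 0.0179). All vemurafenib libraries lay above all DMSO libraries, and CCL2 rose 1.46-fold (log2 0.55 ± 0.14, adjusted p = 0.000647). It was the single gene of the 9 that vemurafenib raised in control cells. Vemurafenib lowered 7, beside 31.6% of all genes called lower, 35.7% called higher and 67.3% called in either direction.

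The interleukins of the IL-1 family responded differently from one another to trametinib, while both fell with vemurafenib. IL1A (ENSG00000115008, chromosome 2, 112773915 to 112784590, minus strand) read 4.29, 4.06 and 4.13 CPM in DMSO and 4.06, 4.69 and 4.28 with trametinib, overlapping ranges with a log2 change of 0.06 ± 0.11 (adjusted p = 0.618). With vemurafenib IL1A read 1.40, 1.72 and 1.11 CPM, a fall of 2.96-fold (log2 -1.56 ± 0.12). The drugs differed for IL1A in control cells, at log2 -1.63 ± 0.12 for vemurafenib against trametinib (adjusted p = 1.4e-15), the smallest p of the 9 genes in that comparison. IL1B (ENSG00000125538, chromosome 2, 112829751 to 112836903, minus strand) was low, at 0.430, 0.558 and 0.445 CPM in DMSO, and fell to 0.122, 0.169 and 0.299 with trametinib and to 0.0842, 0.222 and 0.0767 with vemurafenib. The IL1B changes were -1.30 ± 0.31 and -1.93 ± 0.35, and the latter was -2.55 without vemurafenib replicate 2.

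IL24 (ENSG00000162892, chromosome 1, 206897443 to 206904139, plus strand) had by far the most counts, and its errors were the smallest. It read 111, 118 and 125 CPM in control cells in DMSO, 43.2, 40.0 and 42.2 with trametinib and 57.0, 50.3 and 46.0 with vemurafenib. No libraries overlapped between DMSO and either drug, and the falls were 2.83-fold (log2 -1.50 ± 0.05) and 2.31-fold (log2 -1.21 ± 0.05). PTGS2 (ENSG00000073756, chromosome 1, 186671791 to 186680427, minus strand), the enzyme that makes the prostaglandin precursor PGH2, read 1.12, 1.14 and 1.22 CPM in DMSO, 1.17, 1.18 and 1.06 with trametinib and 1.12, 0.875 and 1.09 with vemurafenib. The trametinib range overlapped that in DMSO, and the highest vemurafenib library (1.119 CPM) lay just below the lowest in DMSO (1.124 CPM). Neither change of PTGS2 passed the test (log2 -0.03 ± 0.16, adjusted p = 0.894, and -0.17 ± 0.17, adjusted p = 0.364).

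**Figure D2:**
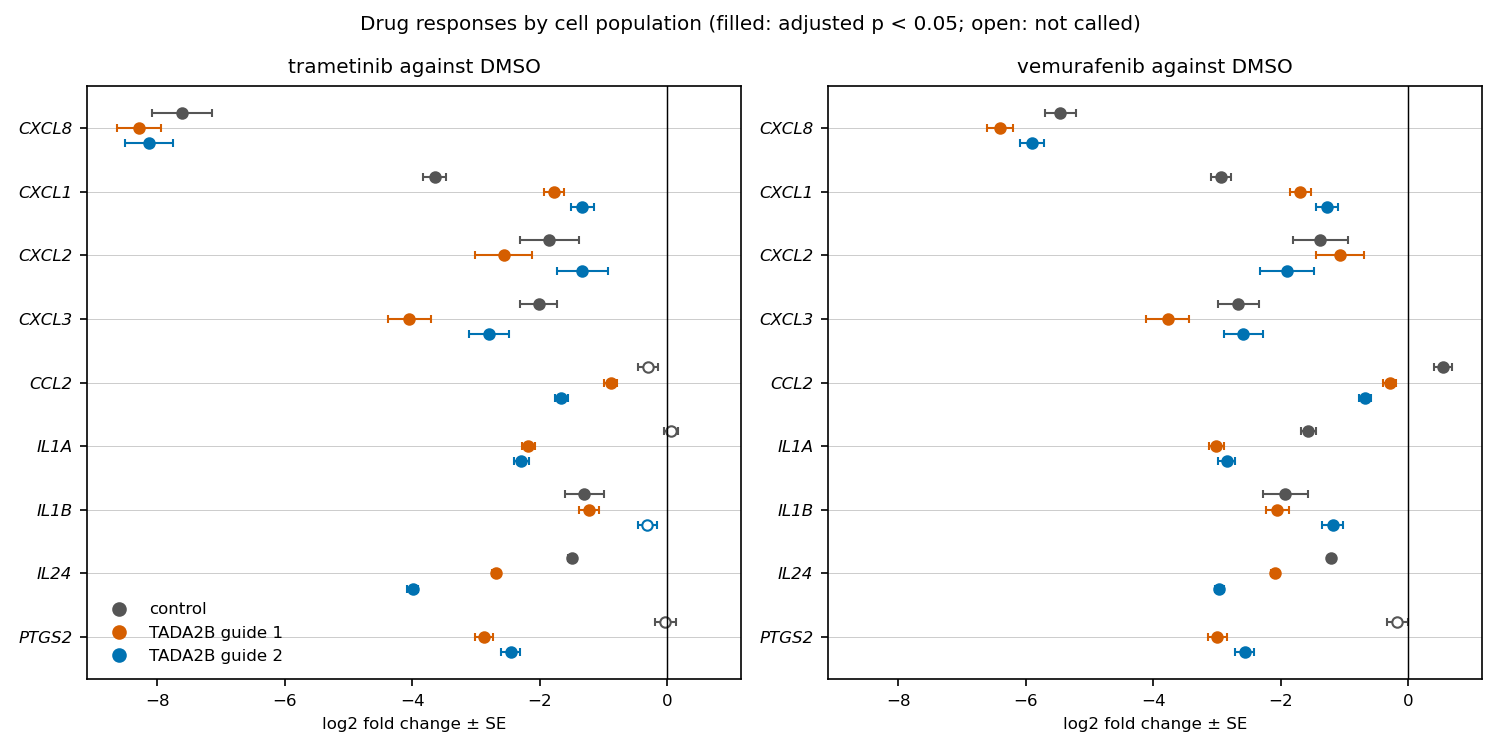
Log2 fold change ± SE (x axis) of 9 genes (y axis) for trametinib (left) and vemurafenib (right) against DMSO in control cells and with each TADA2B guide; filled points passed an adjusted p of 0.05. CXCL8 lies farthest left in every population, and IL1A and PTGS2 under trametinib sit near 0 in control cells but between -2.18 and -2.87 with either guide.

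In DMSO, TADA2B knockout cells held more RNA of CCL2, IL1B, PTGS2, CXCL8 and IL1A, and less of CXCL1 and IL24, than control cells. Counting CXCL3, which was called by a narrow margin, 6 of 9 genes were higher and 2 lower, beside 29.3% of all genes called higher, 28.6% called lower and 57.9% called in either direction. The median of the 9 was 1.01 on the log2 scale, against 0.00112 for all genes.

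IL1B and CCL2 had the largest knockout changes of the 9 genes in DMSO. IL1B read 3.74, 3.69 and 4.13 CPM with guide 1 and 3.49, 3.98 and 3.52 with guide 2, all well above the highest control library at 0.558. IL1B rose 7.82-fold (log2 2.97 ± 0.19, adjusted p = 1.74e-19), by 3.00 ± 0.21 with guide 1 and 2.93 ± 0.21 with guide 2. CCL2 read 5.98, 5.79 and 6.76 CPM with guide 1 and 8.72, 8.82 and 8.56 with guide 2, against 1.21 at most in control cells. It rose 6.73-fold (log2 2.75 ± 0.12), and more with guide 2 than with guide 1 (difference 0.49 ± 0.10, adjusted p = 0.000169). PTGS2 read 7.17, 7.10 and 6.73 CPM with guide 1 and 6.02, 4.64 and 4.89 with guide 2, a rise of 5.18-fold (log2 2.37 ± 0.13).

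CXCL8 and CXCL1, which share the κB letters shown above, changed in opposite directions. CXCL8 read 42.0, 36.6 and 39.3 CPM with guide 1 and 33.8, 35.6 and 34.8 with guide 2, against 16.0 at most in control cells, and rose 2.44-fold (log2 1.29 ± 0.08). CXCL1 read 3.69, 3.66 and 3.62 CPM with guide 1 and 2.33, 2.04 and 2.24 with guide 2, against 7.73 at least in control cells, and fell 2.93-fold (log2 -1.55 ± 0.12). For neither gene did a knockout library reach the control range. CXCL3 read 2.07, 2.05 and 1.90 CPM with guide 1, above every control library, and 1.22, 1.27 and 1.43 with guide 2, within or just above the control range. Its change was 0.80 ± 0.23 with guide 1 (adjusted p = 0.00342) and 0.18 ± 0.24 with guide 2 (adjusted p = 0.56). Over both guides it was 0.49 ± 0.21 (adjusted p = 0.0418), a call lost on leaving out any 1 of 7 libraries in DMSO, where it ranged from 0.36 to 0.53 with adjusted p-values from 0.0504 to 0.209. CXCL2 read 0.690, 0.740 and 0.741 CPM with guide 1 and 0.675, 0.574 and 0.656 with guide 2, overlapping the control replicate at 0.713. The CXCL2 change was 0.57 ± 0.33 (adjusted p = 0.136), and 1.06 (adjusted p = 0.0207) without that replicate, number 2.

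IL1A read 8.78, 9.53 and 9.17 CPM with guide 1 and 7.80, 7.00 and 8.22 with guide 2, above all control libraries, and rose 2.01-fold (log2 1.01 ± 0.09). IL24 read 50.6, 51.4 and 51.2 CPM with guide 1 and 44.0, 44.2 and 43.3 with guide 2, below all control libraries, and fell 2.50-fold (log2 -1.32 ± 0.05). The knockout populations thus differed from control cells in both directions among the genes described here. The summed leukocyte markers, 18.6 CPM at most in control cells in DMSO, reached 37.5 to 39.3 CPM with guide 1 and 29.2 to 30.4 CPM with guide 2. Of these 9, LYZ made up the largest part, at 4.55 to 35.8 CPM over all libraries, while PTPRC was at most 2.91 CPM and CD3E and TYROBP, which mark T cells and myeloid cells, were at or near 0. The fibroblast markers summed to between 63.0 and 78.8 CPM with the guides in DMSO, against 38.0 CPM at most in control cells. The sum of 6 endothelial markers was 16.5 to 17.0 CPM in control cells and 8.48 to 9.56 CPM with the guides, and that of 6 keratinocyte markers 58.5 at most and 63.6 CPM at most. The part of these markers in the results was not tested.

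Under the drugs the knockout difference took another form for most genes. In trametinib 3 of 9 genes were higher and 3 lower in knockout cells, beside 27.1% and 28.8% of all genes and 55.9% in either direction. In vemurafenib 3 were higher and 2 lower, beside 27.3% and 28.3% of all genes and 55.6% in either direction, and 3 of the 5 changed at least 2-fold, beside 13.3% of all genes. The control libraries of a treatment are shared by the comparisons of both guides, and those in DMSO by both drugs.

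IL1B kept its rise in both drugs. With trametinib it read 1.71, 1.54 and 1.67 CPM with guide 1 and 3.29, 2.97 and 2.65 with guide 2, against 0.299 at most in control cells, and was 11.3-fold higher (log2 3.50 ± 0.26). With vemurafenib it read 0.756, 1.26 and 0.768 CPM with guide 1 and 1.38, 1.78 and 1.68 with guide 2, against 0.222 at most, and was 9.70-fold higher (log2 3.28 ± 0.32, or 3.90 without control replicate 2). The size of these IL1B differences rests on few reads. The control libraries held 10, 14 and 22 counts of IL1B with trametinib and 7, 16 and 6 with vemurafenib. CCL2 was likewise higher in every knockout library than in every control library of the same drug. It read 3.29, 3.45 and 3.29 CPM (guide 1) and 3.00, 2.67 and 2.61 CPM (guide 2) with trametinib, and 4.83, 4.70 and 5.65 CPM (guide 1) and 5.34, 5.19 and 5.81 CPM (guide 2) with vemurafenib. The CCL2 differences were 1.78 ± 0.12 and 1.72 ± 0.11 on the log2 scale.

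IL24 was the gene most reduced by knockout under drug. With trametinib it read 8.25, 7.58 and 7.91 CPM with guide 1 and 3.03, 2.81 and 2.45 with guide 2, against 40.0 at least in control cells, and was 8.96-fold lower (log2 -3.16 ± 0.06). With vemurafenib it read 10.7, 12.4 and 12.7 CPM with guide 1 and 5.71, 5.49 and 5.68 with guide 2, against 46.0 at least, and was 6.24-fold lower (log2 -2.64 ± 0.05). From control cells in DMSO to guide 2 cells in trametinib, IL24 went from a mean of 118 CPM to 2.76 CPM, and the libraries of the 3 populations stood in separate, non-overlapping bands in every treatment.

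**Figure D3:**
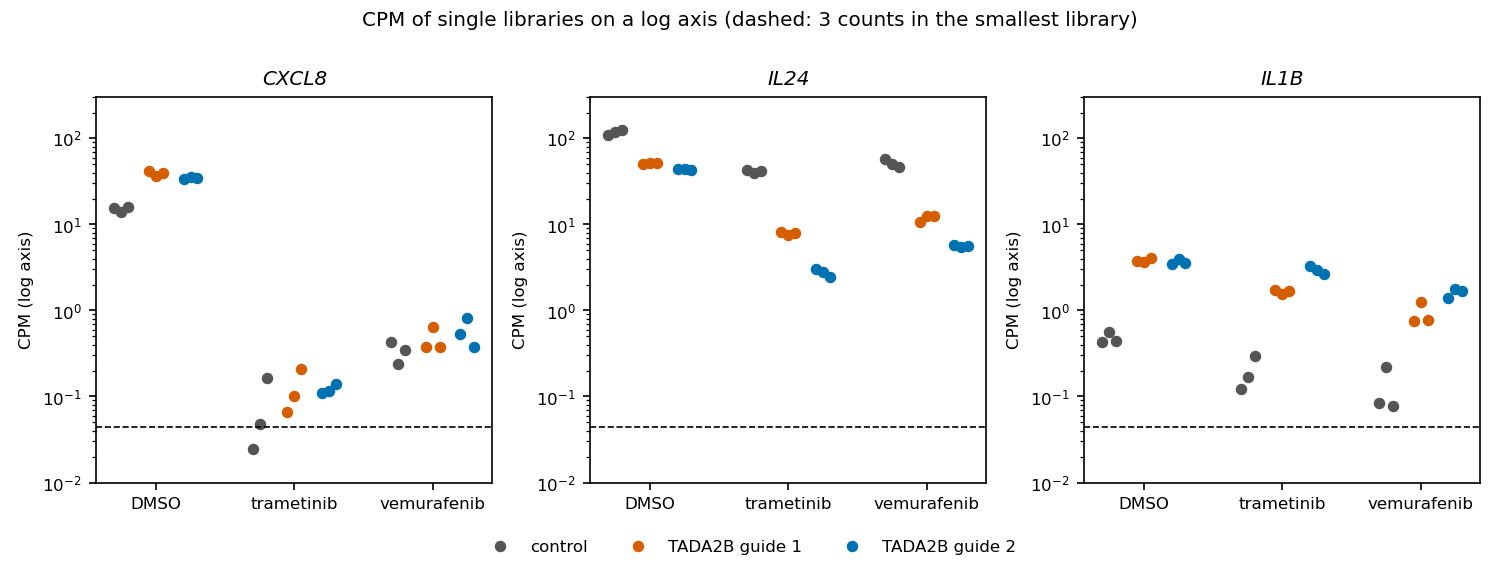
CPM on a log axis (y) of CXCL8, IL24 and IL1B in single libraries by treatment (x) and population (colour); the dashed line marks 3 counts in the smallest library, 0.0447 CPM. IL24 forms 3 separate bands in each treatment, IL1B in knockout cells stays above 0.7 CPM throughout, and CXCL8 under trametinib lies between 0.0245 and 0.209 CPM.

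IL1A changed sides. It was higher in knockout cells in DMSO but lower in trametinib, where it read 2.22, 1.80 and 2.07 CPM with guide 1 and 1.53, 1.53 and 1.63 with guide 2 against 4.06 at least in control cells (log2 -1.28 ± 0.10). In vemurafenib IL1A read 1.11, 1.09 and 1.21 CPM with guide 1 and 1.17, 1.05 and 0.964 with guide 2, ranges that met the lowest control library, and the difference was -0.35 ± 0.12 (adjusted p = 0.0117). That call was lost without control replicate 2 (-0.19, adjusted p = 0.24). By guide, IL1A passed there with guide 2 (-0.40, adjusted p = 0.0146) but not with guide 1 (-0.30, adjusted p = 0.0713). PTGS2 lost its difference under both drugs: it read 0.856 to 1.07 CPM over the 6 knockout libraries in trametinib and 0.672 to 1.02 CPM in vemurafenib, against 0.875 to 1.18 CPM in control libraries given a drug. Its knockout changes there were -0.26 ± 0.14 (adjusted p = 0.109) and -0.23 ± 0.15 (adjusted p = 0.178).

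Among CXC chemokines under drug, differences between populations were small beside the counts that remained. CXCL8 read 0.0667 to 0.209 CPM with the guides in trametinib and 0.373 to 0.819 CPM in vemurafenib, overlapping control libraries in both. Its difference was 0.70 ± 0.53 in trametinib (adjusted p = 0.252), or 1.72 (adjusted p = 0.0201) without control replicate 3. In vemurafenib it was 0.59 ± 0.27 at an adjusted p of 0.0497, a call lost in limma voom (adjusted p = 0.133) and on leaving out any of several libraries, down to 0.41 (adjusted p = 0.233) without control replicate 2. CXCL8 passed in vemurafenib with guide 2 (0.757, adjusted p = 0.0251) but not with guide 1 (0.432, adjusted p = 0.252). CXCL1 read 0.647 to 1.21 CPM with the guides in trametinib, 1.46-fold above control cells (log2 0.55 ± 0.17, adjusted p = 0.00589), and 0.865 to 1.30 CPM in vemurafenib (log2 -0.10 ± 0.16, adjusted p = 0.609). The CXCL1 call in trametinib was lost without control replicate 3 (0.43, adjusted p = 0.0558). By guide, CXCL1 passed there with guide 1 (0.695, adjusted p = 0.00204) but not with guide 2 (0.403, adjusted p = 0.0866). CXCL3 was lower in trametinib (log2 -0.92 ± 0.31, adjusted p = 0.00952), with 0.0812 to 0.256 CPM against 0.217 to 0.386, but not without control replicate 2 (-0.62, adjusted p = 0.154). It passed with guide 1 (-1.23, adjusted p = 0.0046) but not with guide 2 (-0.60, adjusted p = 0.15). CXCL2 did not pass in either drug, at 0.1 to 0.332 CPM in trametinib and 0.0126 to 0.380 CPM in vemurafenib with the guides.

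**Figure D4:**
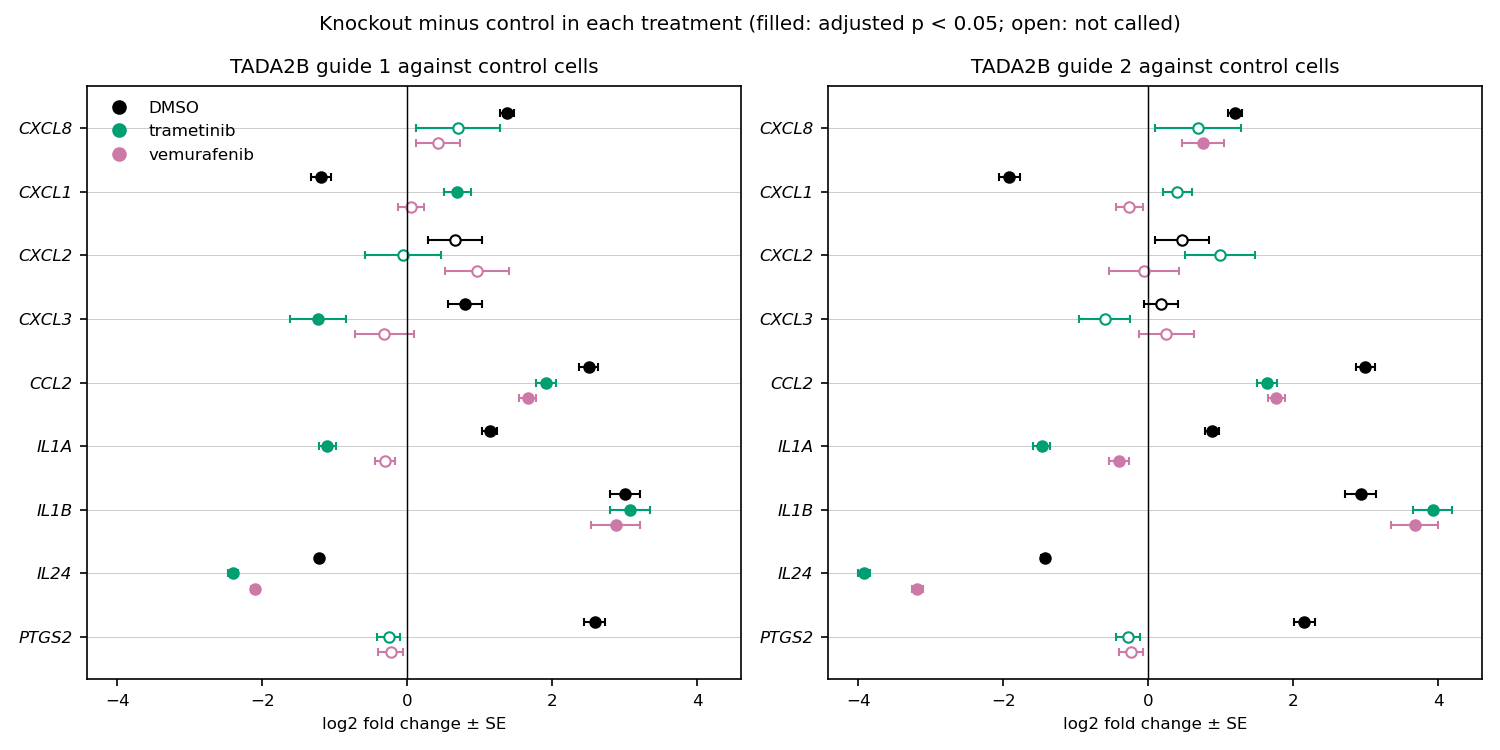
Log2 fold change ± SE (x axis) of 9 genes (y axis) for guide 1 (left) and guide 2 (right) against control cells, in DMSO, trametinib and vemurafenib (colour); filled points passed an adjusted p of 0.05. IL1B and CCL2 lie to the right and IL24 to the left in every treatment, while PTGS2 and IL1A lie to the right in DMSO alone.

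Each drug lowered all 9 genes in knockout cells, beside 34.3% of all genes called lower, 37.2% called higher and 71.4% called in either direction for trametinib. For vemurafenib these shares were 33.1%, 36.0% and 69.1%. The medians of the 9 were -2.23 and -2.53, against 0.0423 and 0.0419 for all genes. Taken by guide, IL1B with guide 2 in trametinib did not pass (log2 -0.31 ± 0.15, adjusted p = 0.0795). CXCL8 fell 295-fold with trametinib (log2 -8.21 ± 0.26) and 71.1-fold with vemurafenib (log2 -6.15 ± 0.14). IL24 fell 10.1-fold and 5.77-fold, PTGS2 6.34-fold and 6.87-fold, and IL1A 4.70-fold and 7.62-fold. CCL2, which vemurafenib had raised in control cells, fell 1.40-fold in knockout cells (log2 -0.48 ± 0.07).

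Whether the drug responses themselves differed between knockout and control cells was tested as an interaction, in which the control response is subtracted from the knockout response. For trametinib 6 of the 9 passed, 1 higher and 5 lower, beside 20.8% and 23.2% of all genes and 43.9% in either direction. For vemurafenib 5 passed, 1 higher and 4 lower, beside 20.0% and 22.4% of all genes and 42.5% in either direction. CXCL1 was the gene with a positive value, 2.10 ± 0.21 for trametinib and 1.45 ± 0.20 for vemurafenib: it fell 12.5-fold and 7.63-fold in control cells, but 2.93-fold and 2.80-fold in knockout cells, which started from a lower level and ended at 0.647 to 1.30 CPM. PTGS2 had values of -2.64 ± 0.19 and -2.61 ± 0.20: it fell from 4.64 CPM or more to 1.07 CPM or less in knockout cells, while control libraries lay between 0.875 and 1.22 CPM with and without drug. IL1A (-2.30 ± 0.13 and -1.36 ± 0.15), IL24 (-1.84 ± 0.07 and -1.32 ± 0.07) and CCL2 (-0.97 ± 0.17 and -1.03 ± 0.16) had negative values for both drugs. Of these, IL1A was not called lower in control cells with trametinib, and neither was CCL2 with either drug. The guides differed in size for IL24 and CCL2. The IL24 values were -1.19 ± 0.08 (guide 1) and -2.495 ± 0.10 (guide 2) for trametinib, and -0.89 ± 0.08 and -1.75 ± 0.09 for vemurafenib. Those of CCL2 were -0.58 ± 0.19 and -1.36 ± 0.19 for trametinib, and -0.84 ± 0.175 and -1.23 ± 0.17 for vemurafenib.

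CXCL3 fell more in knockout cells with trametinib (-1.40 ± 0.37, adjusted p = 0.00151), with a value of -2.03 ± 0.45 for guide 1 and -0.78 ± 0.43 for guide 2 (adjusted p = 0.145). For vemurafenib its value was -0.52 ± 0.40 (adjusted p = 0.32), or -0.96 (adjusted p = 0.0397) without control vemurafenib replicate 1. IL1B, over both guides, did not pass for either drug (0.53 ± 0.33, adjusted p = 0.183, and 0.31 ± 0.37, adjusted p = 0.528). Without control trametinib replicate 3 the first of these was 0.94 (adjusted p = 0.0334). By guide, IL1B had a trametinib value of 0.07 ± 0.34 with guide 1 (adjusted p = 0.9) and 0.99 ± 0.34 with guide 2, where it passed (adjusted p = 0.0135). CXCL8 did not pass for trametinib (-0.59 ± 0.54, adjusted p = 0.443) and lay at the threshold for vemurafenib (-0.69 ± 0.28, adjusted p = 0.0511), with guide 1 at -0.95 ± 0.32 (adjusted p = 0.0207) and guide 2 at -0.44 ± 0.31 (adjusted p = 0.281). The CXCL8 value for vemurafenib passed in DESeq2's Wald test (adjusted p = 0.0428) and without the low-count filter (0.00425). It also passed with at least 1 CPM in 3 libraries (0.0404), with the compared groups alone (0.03) and without any of several single libraries. With limma voom or a replicate block it did not pass. CXCL2 stood near 0 with wide errors, -0.10 ± 0.55 and -0.11 ± 0.52.

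Set against each other at these doses, the drugs differed for 5 of the 9 genes in control cells, 4 higher and 1 lower in vemurafenib, beside 8.78% and 7.56% of all genes and 16.3% in either direction. CXCL8 and IL1A, 2 of the 5, differed at least 2-fold, beside 1.44% of all genes. CXCL8 was 4.46-fold higher with vemurafenib than with trametinib (log2 2.16 ± 0.52), or 3.18 on the log2 scale without control trametinib replicate 3. CCL2 was 1.80-fold higher (log2 0.85 ± 0.15), CXCL1 1.64-fold and IL24 1.22-fold, while IL1A was 3.09-fold lower. The CXCL1 call was lost without vemurafenib replicate 1 (0.53, adjusted p = 0.101). In knockout cells 3 genes were higher and 2 lower with vemurafenib, beside 10.9% and 8.29% of all genes and 19.2% in either direction. Of these 5, 1 differed at least 2-fold (CXCL8), beside 1.44% of all genes. CXCL8 (4.16-fold), CCL2 (1.73-fold) and IL24 (1.76-fold) were higher there too, and IL1A was 1.62-fold lower. IL1B, at -0.63 ± 0.39 in control cells (adjusted p = 0.321), was 1.80-fold lower in knockout cells (log2 -0.85 ± 0.12).

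The guides differed from each other for some of the 9 genes. In DMSO 1 was higher and 3 lower with guide 2, beside 4.64% and 7.29% of all genes and 11.9% in either direction, and 0 differed at least 2-fold, beside 0.829% of all genes. CCL2 was the higher one, and CXCL1 (-0.73 ± 0.15), PTGS2 (-0.43 ± 0.12) and IL24 (-0.22 ± 0.05) were lower. The PTGS2 call was lost without guide 2 replicate 2 (-0.36, adjusted p = 0.0967) or 3 (-0.39, adjusted p = 0.0653). In trametinib 1 was higher and 2 lower with guide 2, beside 10.8% and 8.91% of all genes and 19.7% in either direction, and IL24 alone differed at least 2-fold, beside 1.15% of all genes. IL24 was 2.87-fold lower (log2 -1.52 ± 0.09) and IL1B 1.81-fold higher (log2 0.85 ± 0.16) with guide 2. The IL1A difference in trametinib (-0.37 ± 0.12, adjusted p = 0.0274) was lost on leaving out any of 4 libraries, with values from -0.36 to -0.30 and adjusted p-values from 0.0714 to 0.146. In vemurafenib 1 was higher and 1 lower with guide 2, beside 7.12% and 8.85% of all genes and 16.0% in either direction, with IL24 again the 1 past 2-fold, beside 1.15% of all genes. These were again IL1B, 1.74-fold higher, and IL24, 2.12-fold lower. Other differences passed the test in some settings. IL1A in DMSO, at -0.26, passed in DESeq2's Wald test (adjusted p = 0.0354), limma voom (0.0103) and a fit of the compared groups alone (0.0116). CXCL8 in DMSO, at -0.18, passed with limma voom (adjusted p = 0.0129) and the compared groups alone (0.00163). CCL2 in trametinib, at -0.28, passed in DESeq2's Wald test (adjusted p = 0.0464) and with at least 1 CPM in 3 libraries (0.046). CXCL1 in trametinib passed without guide 2 replicate 3 (-0.58, adjusted p = 0.0387). CXCL2 in vemurafenib passed without guide 2 replicate 3 (-1.59, adjusted p = 0.0237) and with limma voom (-1.72, adjusted p = 0.0229). CXCL3 in DMSO, at -0.62, passed without control vemurafenib replicate 1 (adjusted p = 0.0408) and, with all libraries, in DESeq2's Wald test (adjusted p = 0.0418), limma voom (0.00737), the stricter filter (0.034) and a fit of the compared groups alone (0.00333).

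IL6 (ENSG00000136244, chromosome 7, 22725884 to 22732002, plus strand), the cytokine best known for driving the acute-phase response, was close to absent. It had counts in 13 of 27 libraries, 7 at most, and did not exceed 0.0716 CPM. Its highest library belonged to guide 1 in trametinib, whose other libraries held 0 and 1 counts. IL6 was not detectable in guide 1 cells in DMSO, at 0 counts in 3 libraries, and the level that 3 counts would give in the smallest library of the series is 0.0447 CPM. It failed the filter on low counts, and in a fit without the filter no comparison called it. Of its exon bases, 428 overlap the exons of AC073072.1 and 46 those of STEAP1B on the opposite strand, and since the strand setting of the counting is not given, reads there cannot be assigned with certainty.

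Among the receptors of these factors, the shared IL-1 receptor IL1R1 stood at 0.923 CPM in control cells in DMSO, 1.84 with trametinib and 3.99 in knockout cells in DMSO. IL1R1 rose with trametinib (log2 0.99 ± 0.19) and with knockout (2.09 ± 0.16). Its partner IL1RAP fell with trametinib from 44.4 to 9.54 CPM (-2.22 ± 0.06) and with knockout to 23.5 CPM (-0.93 ± 0.05). IL6R, the receptor of IL6, rose with trametinib from 48.3 to 189 CPM (1.97 ± 0.03) and fell with knockout to 27.9 CPM (-0.79 ± 0.03), so the receptor was present where its ligand was barely counted. PTGER4, a receptor of prostaglandin E2, rose with knockout from 0.492 to 2.28 CPM (2.18 ± 0.17). In all, 11 of 16 listed receptors could be tested. With trametinib in control cells 5 rose and 3 fell (median log2 0.0479), beside 36.4% and 32.5% of all genes. With knockout in DMSO 5 rose and 2 fell (median 0.483), beside 29.3% and 28.6% of all genes.

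Several enzymes around PTGS2 were called in control cells given a drug, whereas PTGS2 was not, nor was PTGS1, its constitutive relative (log2 0.07, adjusted p = 0.331, with trametinib and 0.01, adjusted p = 0.91, with vemurafenib). PTGES, which turns PGH2 into prostaglandin E2, fell with trametinib in control cells from 106 to 16.0 CPM (log2 -2.74 ± 0.04) and with vemurafenib to 14.2 CPM (-2.91 ± 0.04). HPGD, which breaks prostaglandins down, rose from 1.09 to 14.6 CPM (3.75 ± 0.15) and to 10.4 CPM (3.26 ± 0.15). TBXAS1, which makes thromboxane, fell from 5.10 to 0.583 CPM with trametinib (-3.12 ± 0.18). Of 10 tested genes of prostaglandin synthesis and breakdown, 3 rose and 5 fell with trametinib in control cells (median -0.481), where 36.4% of all genes rose and 32.5% fell. With knockout in DMSO 3 rose and 6 fell (median -0.286), where 29.3% and 28.6% of all genes did. Among those that fell was PLA2G4A, the phospholipase that releases arachidonic acid, from 18.1 to 10.3 CPM (-0.83 ± 0.06).

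Genes that NF-kB induces, some of which hold it back, did not move together. NFKBIA, the inhibitor IκBα, rose with trametinib in control cells from 12.4 to 49.6 CPM (log2 2.00 ± 0.05), while TNFAIP3, the inhibitor A20, fell from 9.83 to 2.03 CPM (-2.27 ± 0.10). In knockout cells in DMSO TNFAIP3 rose to 26.2 CPM (1.41 ± 0.06) and BIRC3, an inhibitor of cell death, from 2.53 to 11.3 CPM (2.16 ± 0.09), while the adaptor TRAF1 fell from 72.2 to 21.5 CPM (-1.78 ± 0.04). All 11 listed feedback targets were tested: 6 rose and 4 fell with trametinib in control cells (median 0.118), and 7 rose and 2 fell with knockout in DMSO (median 0.454). Of 10 subunits and kinases of the NF-kB pathway, 2 rose and 5 fell with trametinib (median -0.123), and 8 rose and 1 fell with knockout (median 0.127), the last being REL, from 9.07 to 5.99 CPM (-0.60 ± 0.07). The largest rise with knockout in that list was IKBKE at 0.65 ± 0.05. Over all genes tested, 36.4% rose and 32.5% fell with trametinib, and 29.3% rose and 28.6% fell with knockout.

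Several AP-1 factors rose with trametinib in control cells, where CXCL8 fell. JUN went from 9.50 to 611 CPM with trametinib (log2 6.00 ± 0.05), ATF3 from 2.66 to 153 CPM (5.84 ± 0.07) and FOSL2 from 30.1 to 499 CPM (4.05 ± 0.03). FOSL1, the AP-1 member most tied to ERK signalling, fell with vemurafenib in control cells from 137 to 12.7 CPM (-3.43 ± 0.05). In knockout cells FOSL1 fell with trametinib from 88.5 to 7.58 CPM (-3.54 ± 0.04) and with vemurafenib to 10.5 CPM (-3.07 ± 0.04). The rises were smaller in knockout cells, with interaction values for trametinib of -2.76 ± 0.05 for JUN and -2.96 ± 0.08 for ATF3. Of 16 factors that act at cytokine genes or on their mRNA, 8 rose and 7 fell with trametinib in control cells (median 0.236), and 10 rose and 4 fell with knockout in DMSO (median 0.24). Of those that rose with knockout, ZC3H12A, a nuclease that destroys cytokine mRNA, changed most (0.94 ± 0.08). All 12 listed genes of MAPK output fell with trametinib in control cells (median -4.09), SPRY4, a feedback inhibitor of that pathway, from 443 to 1.64 CPM, and 4 rose and 7 fell with knockout in DMSO (median -0.328). These counts stand beside 36.4% of all genes higher and 32.5% lower with trametinib, and 29.3% and 28.6% with knockout.

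**Figure D5:**
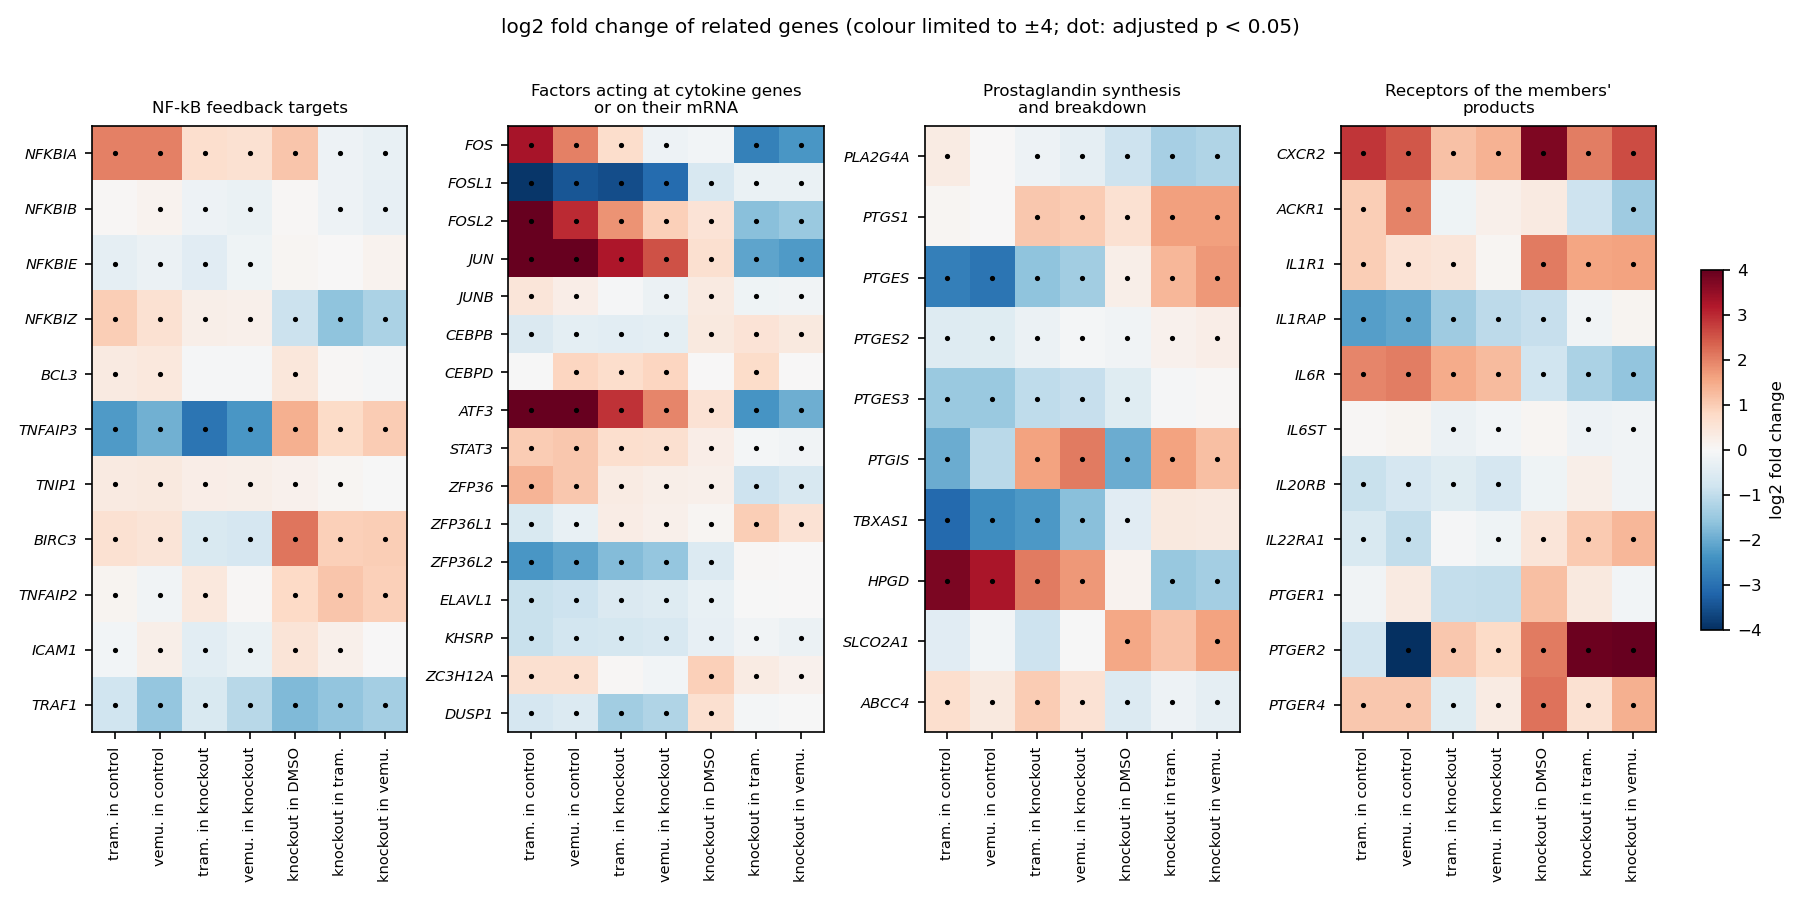
Log2 fold change (colour, limited to 4 in either direction) of the tested genes of 4 lists (rows) in 7 comparisons (columns; tram., trametinib; vemu., vemurafenib); dots mark an adjusted p under 0.05. JUN, ATF3 and FOSL2 are red under drug in control cells while TNFAIP3 is blue, and knockout in DMSO reddens TNFAIP3 and BIRC3. PTGER2 had 0 counts in control cells given vemurafenib, so its colours for vemurafenib in control and knockout in vemurafenib give no size.

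Other secreted factors were listed as chemokines and as interleukins and cytokines, and some were too low to test. Of 18 other chemokines 10 were tested: 3 rose and 3 fell with trametinib in control cells (median 0.252), and 6 rose and none fell with knockout in DMSO (median 0.441). CCL20, which draws dendritic cells and lymphocytes, fell with trametinib from 0.828 to 0.0844 CPM (log2 -3.28 ± 0.40), and CCL26, an eosinophil chemokine, rose with knockout from 0.168 to 1.03 CPM (2.60 ± 0.32). Of 20 other interleukins and cytokines 14 were tested: 4 rose and 7 fell with trametinib (median -0.545), and 10 rose and 2 fell with knockout in DMSO (median 0.803). IL16, a chemoattractant of CD4+ cells, rose with trametinib from 3.19 to 22.4 CPM (2.81 ± 0.09). IL32, a proinflammatory cytokine, rose with knockout from 0.0913 to 0.921 CPM (3.29 ± 0.34). The shares over all genes were again 36.4% higher and 32.5% lower with trametinib, and 29.3% and 28.6% with knockout. IL11, a cytokine of the IL6 family, fell more with trametinib in knockout than in control cells, with an interaction of -2.44 ± 0.10.

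Across the 27 libraries, which share 9 groups, the 9 genes did not form a single pattern. The closest pair was CXCL8 and CXCL3 (Pearson r = 0.883 of log2-CPM), followed by CXCL3 with IL1A (0.849) and IL1A with PTGS2 (0.839). IL24 ran against IL1B (r = -0.411) and CCL2 (-0.333), and CCL2 was nearly unrelated to CXCL1 (0.0221). Among 12147 genes listed as protein-coding in GENCODE release 29, those following CXCL8 most closely were PITPNC1 (r = 0.991), EPHA2 (0.991) and ATP13A2 (0.989). For CXCL1 they were AFAP1 (0.975), PDIA6 (0.971) and TFRC (0.967), and for CCL2 they were MSX2 (0.967), ABLIM3 (0.962) and NWD1 (0.960). IL1A was followed by SLC45A3 (0.967), CTSL (0.967) and RANBP6 (0.951), and IL1B by MIR1915HG (0.969), SYNJ2 (0.968) and FAM167A (0.968). IL24 was followed by SORCS1 (0.987), UCN2 (0.979) and VIM (0.977), and PTGS2 by USP43 (0.971), ADGRL4 (0.965) and TMEM131 (0.958). These values describe likeness of level over groups that differ in treatment and genotype, and carry no test.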

How the data were processed

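The authors deposited 1 table of raw whole-number counts of reads per gene for 27 libraries, not normalized. Per the labels' protocols, RNA was extracted with a QIAGEN RNeasy Plus Mini kit and libraries came from a stranded KAPA kit for mRNA. Named in the submitters' processing notes are bcl2fastq, HISAT2, HTSeq and the hg38 build. Versions, annotation, strand setting and the handling of reads with several matches were not given in the sources used here. The 58721 identifiers of the table were all matched to those of GENCODE release 29, which gave coordinates and exon lengths. No row lacked a gene, and 12466 rows had no count in any library.

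From these counts, CPM (counts scaled to the library total times its TMM factor, 0.866 to 1.09) and all tests were computed in R 4.3.3 with edgeR 4.0.16. CPM are relative values, and total RNA per cell was not measured. After filterByExpr, 25199 genes, 9 of the 10 described among them, entered edgeR's quasi-likelihood test with robust dispersion, fitted as 9 group means over all 27 libraries with 18 residual degrees of freedom. P-values were adjusted over all tested genes (Benjamini-Hochberg), and a gene was called under 0.05. All adjusted p-values in the text come from that test unless another is named. Knockout effects are the mean of both guides minus control. An error after a log2 value is its standard error, and one after a level is the SD of 3 libraries. Limits set from counts cover counting error only. Groups were taken from sample titles. Between replicates, chi-square per degree of freedom was 2.94 to 12.0 over genes, and no library was treated as a duplicate.

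The 10 genes and the lists of related genes were chosen with earlier results of these data known. Named from each list were at most the 3 called genes with the largest change in a comparison, left out where a group had 0 counts, with the same gene's values in other comparisons beside them. Genes of similar pattern were the 3 with the highest Pearson r of log2-CPM (prior count 2), for members averaging at least 1 CPM. They came from genes that GENCODE release 29 lists as protein-coding and that averaged at least 1 on the log2-CPM scale. The alternatives were DESeq2 1.42.0 size factors and its Wald test, limma 3.58.1 voom, no low-count filter, at least 1 CPM in 3 libraries, the compared groups alone, a replicate block, a prior count of 2 for fold changes in place of 0.125, a change of at least 2-fold, and leaving out each library. Counts were also simulated for 25199 genes, few of them changed, in control cells given trametinib alone and none with a low mean count. Trametinib in control cells recovered 93 of 100 genes changed by 1 on the log2 scale and 100 of 100 changed by 2, with 8 false calls. The trametinib interaction recovered 87 of 100 and 100 of 100, with 10 false calls. Recovery of genes with low mean counts, and changes in as many genes as in the data, were not simulated.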

Additional observations from a re-analysis of the deposited data

Results flagged for a closer look

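Drug responses that differed between knockout and control cells by the test of the difference itself (knockout minus control, log2 scale, edgeR's quasi-likelihood test) are listed here. For trametinib these were CXCL1 at 2.10, CXCL3 at -1.40, CCL2 at -0.97, IL1A at -2.30, IL24 at -1.84 and PTGS2 at -2.64. For vemurafenib they were CXCL1 at 1.45, CCL2 at -1.03, IL1A at -1.36, IL24 at -1.32 and PTGS2 at -2.61. Both drugs are set against the same DMSO libraries, so the values of a gene for the 2 drugs are not independent. Groups of 3 libraries are too small for a test of single outlying libraries, and none was made.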

How the results depend on the processing

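Of 126 results (9 genes in 14 comparisons), 94 kept their direction and their side of the threshold under every setting tried. Values that changed sign were not called in the fit of the text, where the largest was -0.59 (CXCL8, interaction with trametinib). With limma voom these were CXCL3 for knockout in vemurafenib (0.19) and CXCL8 for guide 2 against guide 1 in trametinib (0.13), and with at least 1 CPM in 3 libraries PTGS2 for trametinib in control cells (0.01165). On leaving out 1 library, knockout in vemurafenib ranged from -0.245 to 0.082 for CXCL1 and from -0.47 to 0.44 for CXCL3. The interaction ranged from -0.59 to 0.12 for CXCL2 and from -1.02 to 0.43 for CXCL8 with trametinib, and from -0.60 to 0.27 for CXCL2 with vemurafenib. Guide 2 against guide 1 ranged from -0.31 to 0.52 for CXCL8 and from -0.089 to 0.081 for PTGS2 in trametinib, and from -0.018 to 0.63 for CXCL8 and from -0.16 to 0.15 for PTGS2 in vemurafenib. Vemurafenib against trametinib in knockout cells ranged from -0.017 to 0.21 for CXCL1, and trametinib in control cells from -0.055 to 0.020 for PTGS2.

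Counts of called genes moved by more than 1.5 times in a few comparisons. For knockout in vemurafenib, 3 were called in place of 5 with limma voom, with the compared groups alone and with a change of at least 2-fold, and 3 to 5 on leaving out 1 library. For guide 2 against guide 1 in DMSO, 7 were called in place of 4 with limma voom and with the compared groups alone, and 0 with at least 2-fold. That last threshold, which asks for larger changes by construction, left 2 of 5 for vemurafenib against trametinib in control cells, 1 of 5 in knockout cells, 1 of 3 for the guides in trametinib and 1 of 2 in vemurafenib. Other causes were not tested.

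Replicate numbers are shared by the groups, but 0 of 108 same-numbered pairs of libraries had deviations correlated over 0.1 (r from -0.0531 to 0.0545), and 10 of 27 libraries correlated best with their own number, so the numbers gave no pairing. With the replicate block CXCL8 for knockout in vemurafenib (0.60, adjusted p = 0.0613) was not called, and the other 125 calls were the same. DESeq2's size factors and the prior count of 2 left all 126 calls as they were, and size factors moved the median of all genes by at most 0.0208. CXCL2 has no value under the stricter filter, which leaves 17131 genes. CPM without TMM factors moved 22 of 90 group levels by more than 1 SD. Depth limits CXCL8 under trametinib, at 2 to 18 counts a library, CXCL2, CXCL3 and IL6. It also limits IL1B in control cells given a drug, at 10, 14 and 22 counts with trametinib and 7, 16 and 6 with vemurafenib.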
